A study of Mus musculus with 2 samples.

Results

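Haemoglobin and erythroid genes were compared between aortic macrophages of dyslipidemic mice with the PDR syndrome and with the SKYD syndrome. The genes were 9 listed symbols, namely the 4 adult globin genes Hba-a1, Hba-a2, Hbb-bs and Hbb-bt, and 5 genes of nucleated erythroblasts, Alas2, Slc4a1, Ahsp, Tfrc and Klf1. They were located by gene symbol, and 8 of the 9 were found among the 54532 genes of the table. Ahsp was not analysed here.

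Both groups were ApoE-/- mice on a C57BL/6J background, which lack apolipoprotein E and develop high blood lipids, with a labelled age of 6 weeks. PDR (phlegm-dampness retention) mice received a high-fat diet for 4 weeks. SKYD (spleen and kidney yang deficiency) mice were gavaged with propylthiouracil, a drug that blocks thyroid hormone synthesis, at 10 mg/kg per day for 4 weeks and then received a high-fat diet for 2 weeks. Aortic cells carrying F4/80 and CD11b, which mark macrophages and related myeloid cells, were sorted, and material of 5 mice went into 1 RNA library per group. Syndrome, drug and diet time therefore cannot be told apart. With 1 library in each group there is no replicate check and no p-value, and all intervals cover counting error only.

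Values are FPKM, reads scaled to the length of the gene and the size of the library, so that levels of different genes can be set side by side. The recovered reads on genes numbered 23086889 for PDR and 25427863 for SKYD. A gene with 0 reads could have had up to 3, a share of up to 1.30e-05% in PDR and 1.18e-05% in SKYD. The sorted proteins were present as RNA in both libraries. Adgre1, which encodes F4/80, had 87.3 FPKM in PDR and 93.3 in SKYD, and Itgam, which encodes CD11b, had 8.84 and 14.4 FPKM. Apoe, the gene targeted in these mice, had 17336 reads in PDR and 3618 in SKYD, and the exons behind these reads are unknown, since only gene totals are used.

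Adult haemoglobin consists of alpha and beta globin chains that each carry haem. Erythroblasts, the nucleated red cell precursors of marrow and spleen, transcribe the globin genes together with genes for haem synthesis, iron uptake and the red cell membrane. Reticulocytes have lost the nucleus and keep globin RNA for a time, and macrophages take up nuclei, aged red cells and their haemoglobin.

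The globin genes are pairs of near-identical copies. In GENCODE M21, on GRCm38, Hba-a1 and Hba-a2 each have 429 coding bases that differ at 1 position, C381T, counted from the first base of the start codon with the base of Hba-a1 first. Hbb-bs and Hbb-bt each have 444 coding bases and also differ at 1 position, C417T, with the base of Hbb-bs first. The last 120 coding bases are shown because they hold the differing base, which is in capitals. They lie in the last exon, at chr11:32284272-32284391 for Hba-a1 and chr11:32297089-32297208 for Hba-a2 on the plus strand, and at chr7:103826665-103826784 for Hbb-bs and chr7:103812656-103812775 for Hbb-bt on the minus strand.
Hba-a1: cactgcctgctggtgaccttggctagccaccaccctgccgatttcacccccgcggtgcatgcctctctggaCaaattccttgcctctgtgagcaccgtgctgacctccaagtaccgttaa
Hba-a2: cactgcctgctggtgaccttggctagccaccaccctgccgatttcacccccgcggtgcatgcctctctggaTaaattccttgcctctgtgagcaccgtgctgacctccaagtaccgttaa
Hbb-bs: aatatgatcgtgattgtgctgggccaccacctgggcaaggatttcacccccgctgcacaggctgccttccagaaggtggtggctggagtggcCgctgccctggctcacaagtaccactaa
Hbb-bt: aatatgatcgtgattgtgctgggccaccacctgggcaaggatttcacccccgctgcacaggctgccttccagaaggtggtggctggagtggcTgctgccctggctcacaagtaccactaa
A read from most of these coding bases could come from either copy. Of all 100-base windows of the reference transcript, 56.5% in Hba-a1 and 74.5% in Hba-a2 also occur in the other alpha copy. The shares were 62.6% in Hbb-bs and 54.8% in Hbb-bt, again from the other copy of the pair. How reads that match both copies were assigned is not given in the sources used here, nor whether such reads were left out, so that the level of each copy is uncertain and sums are given beside them. In contrast, Slc4a1, Tfrc and Klf1 shared 0 windows of 50 bases with transcripts of other genes.

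**Figure D1:**
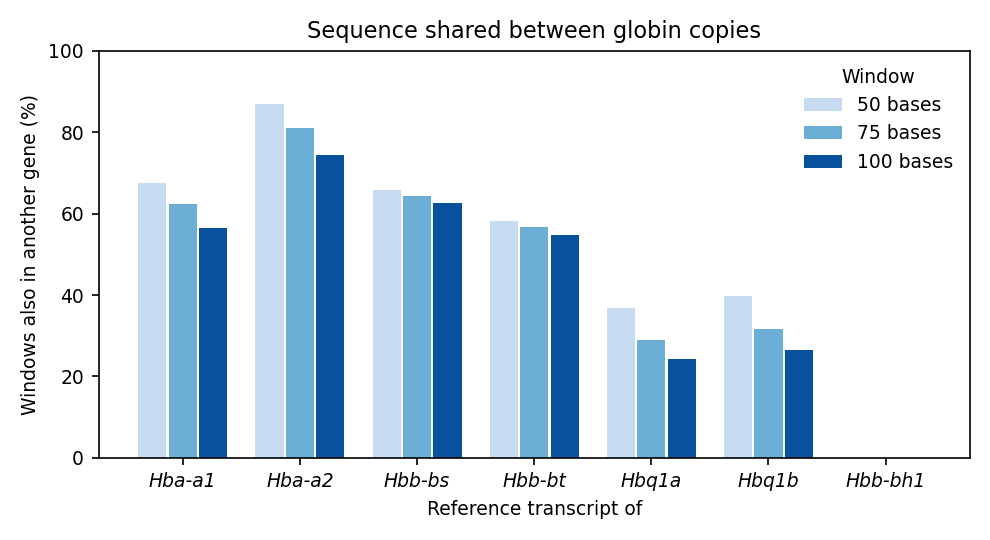
Share of 50-, 75- and 100-base windows of each globin reference transcript that also occur in a transcript of another gene, in percent. The 4 adult globins share from 54.8% to 74.5% of their 100-base windows, and Hbb-bh1 shares 0.

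The 4 adult globin genes were among the most abundant RNAs of both libraries and were higher in SKYD, by less than 2-fold. Hba-a1 (ENSMUSG00000069919, chromosome 11 from 32283511 to 32284465), an alpha globin gene, had 10807 FPKM in PDR and 15651 in SKYD. By FPKM it held rank 5 of all genes in PDR and rank 3 in SKYD. Its level was 1.45-fold higher in SKYD (95% CI 1.44 to 1.46), a log2 difference of -0.53 in log2(FPKM + 1), PDR minus SKYD. The other alpha copy lay lower. Hba-a2 (ENSMUSG00000069917, chromosome 11 from 32296489 to 32297298) had 830.5 FPKM in PDR and 1249 in SKYD, 1.50-fold higher in SKYD (95% CI 1.47 to 1.54) with a log2 difference of -0.59. Hba-a1 was 13.0 times as high as Hba-a2 in PDR and 12.5 times in SKYD.

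The beta globin genes showed the same direction with smaller folds. Hbb-bs (ENSMUSG00000052305, chromosome 7 from 103826534 to 103828096) had 5865 FPKM in PDR and 7514 in SKYD, and was 1.28-fold higher in SKYD (95% CI 1.27 to 1.29), a log2 difference of -0.36. Hbb-bt (ENSMUSG00000073940, chromosome 7 from 103812524 to 103813996) had 3186 FPKM in PDR and 3693 in SKYD. It was 1.16-fold higher in SKYD (95% CI 1.15 to 1.17), a log2 difference of -0.21, the smallest of the 4. The direction of all 4 genes was the same under each scaling tried, but scaled to protein-coding reads Hbb-bs differed by -0.23 and Hbb-bt by only -0.09.

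Summed over the copies, which differ in length so that summed FPKM still depends somewhat on the split, alpha globins had 11637 FPKM in PDR and 16899 in SKYD, and beta globins had 9050 and 11207. The ratio of alpha to beta globin was thus 1.29 in PDR and 1.51 in SKYD. All 4 genes took 377508 reads in PDR, 1.64% of the library (95% CI 1.63 to 1.64, Clopper-Pearson), and 547570 reads in SKYD, 2.15% (95% CI 2.15 to 2.16). Their summed FPKM was 20687 in PDR and 28107 in SKYD, a log2 difference of -0.44 (95% CI -0.45 to -0.44). In pooled bulk RNA, fewer cells of a type and less RNA per cell cannot be told apart.

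The erythroblast genes spread over a wide range, and the measured ones with more than a few reads were higher in PDR. Alas2 (ENSMUSG00000025270, chromosome X from 150547375 to 150570638), the erythroid enzyme of the first step of haem synthesis, had 282.8 FPKM in PDR and 217.9 in SKYD. It was 1.30-fold higher in PDR (95% CI 1.27 to 1.33), a log2 difference of 0.37, opposite in direction to the globins. Alas2 overlaps Apex2 on the other strand, and 11% of its 100-base windows occur there in reverse. Apex2 itself had 1.66 FPKM in PDR and 1.24 in SKYD, far below Alas2.

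Tfrc (ENSMUSG00000022797, chromosome 16 from 32608920 to 32632794), the transferrin receptor that brings iron into erythroblasts and into dividing cells of many types, had 1.73 FPKM in PDR and 1.27 in SKYD. Its fold was 1.37 in favour of PDR (95% CI 1.13 to 1.66), and its log2 difference was 0.27. Slc4a1 (ENSMUSG00000006574, chromosome 11 from 102348824 to 102366203), the anion exchanger of the red cell membrane, was lower still, with 0.592 FPKM from 68 reads in PDR and 0.294 FPKM from 36 reads in SKYD. By reads it was 2.01-fold higher in PDR (95% CI 1.32 to 3.10), while its log2(FPKM + 1) differed by 0.30, because the added 1 exceeds both levels. Klf1 (ENSMUSG00000054191, chromosome 8 from 84901928 to 84905291), a transcription factor that activates erythroid genes, had 0 reads in PDR and 7 in SKYD, at least 2.19-fold higher in SKYD when 0 is taken as 3 reads. Klf1 was thus at or near the detection limit in both libraries.

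In both libraries the order of levels was Hba-a1, Hbb-bs, Hbb-bt, Hba-a2, Alas2, Tfrc, Slc4a1 and Klf1. Counting intervals of neighbours were apart, except for Slc4a1 and Klf1 in SKYD, where 0.206 to 0.408 FPKM overlapped 0.0736 to 0.377. The 4 globins and Alas2 lay above 200 FPKM, and the remaining genes lay below 2 FPKM in both libraries. Of the 8 genes, 6 reached a mean of 1 FPKM, the level required for counting, with differences taken in log2(FPKM + 1), and 0 of these 6 differed by more than 2-fold. Of all 10399 genes at that level, 7.38% lay past 2-fold towards PDR and 6.91% towards SKYD.

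**Figure D2:**
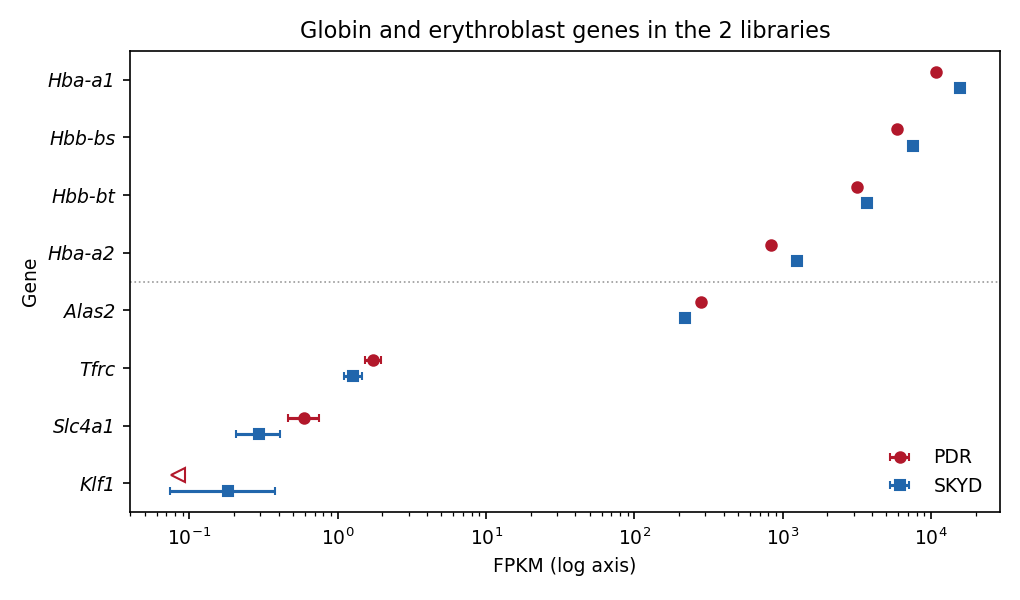
FPKM on a log axis of the 8 measured genes in the PDR library (circles) and the SKYD library (squares), with 95% Poisson intervals from the reads; the open triangle is the upper limit of Klf1 at 0 reads. The 4 globins lie to the right in SKYD, and Alas2, Tfrc and Slc4a1 lie to the right in PDR.

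Set against the genes of nucleated erythroblasts, globin RNA was in larger excess in SKYD. The summed FPKM of the 4 globins was 72.6 times that of the 4 measured erythroblast genes in PDR and 128 times in SKYD. The ratio was 1.76 times as high in SKYD, a log2 difference of -0.82 (95% CI -0.85 to -0.78). Alas2 made up 99.2% of the erythroblast sum in each library, so that this ratio is in effect globin against Alas2, which alone gave 73.2 and 129. Against Tfrc and Slc4a1 the ratio was also higher in SKYD, and Klf1, with its reads in SKYD alone, went the other way. The ratio was 11926 in PDR and 22168 in SKYD for Tfrc, and 34949 and 95441 for Slc4a1, where the log2 difference was -1.45 (95% CI -2.03 to -0.87).

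The summed erythroblast genes had 285.1 FPKM in PDR and 219.7 in SKYD, a log2 difference of 0.37 (95% CI 0.34 to 0.41). When each gene counted alike, as the mean of log2(FPKM + 1), this difference was 0.17, since Klf1 had the opposite sign.

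Promoter sequence was read to compare the globin copies with each other and with Alas2. The windows come from RefSeq on GRCm38.p6 and were found for 11 of the 13 globin and erythroblast genes looked up. In the 250 bases before the start, on both strands, 4 motifs were searched: the GATA motif (WGATAR, where W is A or T and R is A or G), the CACC motif as CCNCNCCC, the CCAAT box as CCAAT, and the TATA box as TATAAA or ATATAA. Both CCAAT and TATA motifs were present in 4 of 4 adult globin windows, the GATA motif in 3 of 4 and the CACC motif in 2 of 4. Of all 32851 promoter windows, 33.8% held CCAAT, 16.7% the TATA motif, 26.5% the GATA motif and 45.9% the CACC motif. The Alas2 window held 1 GATA, 4 CACC, counting overlaps, 0 CCAAT and 1 TATA match. A match describes these letters and is not a site of binding.

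The 250 bases before Hba-a1 and Hba-a2 were the same at 247 of 247 positions after an offset of 3 bases. Those before Hbb-bs and Hbb-bt were the same at 127 of 249 after an offset of -1. Each comparison used a single offset without gaps, so that inserted or missing bases lower the count. Stretches that no annotated exon covers are shown with the matches in capitals, for Hba-a2 at chr11:32296242-32296488 (plus strand), Hbb-bs at chr7:103828097-103828178 (distal) and chr7:103827929-103828011 (proximal, both minus strand), Hbb-bt at chr7:103813997-103814173 (minus strand) and Alas2 at chrX:150547167-150547374 (plus strand).
Hba-a2: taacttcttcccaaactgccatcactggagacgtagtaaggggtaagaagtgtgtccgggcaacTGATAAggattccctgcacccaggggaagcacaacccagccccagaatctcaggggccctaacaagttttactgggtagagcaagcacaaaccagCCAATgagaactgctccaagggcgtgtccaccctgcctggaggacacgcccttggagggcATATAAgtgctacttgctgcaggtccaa
Hbb-bs distal: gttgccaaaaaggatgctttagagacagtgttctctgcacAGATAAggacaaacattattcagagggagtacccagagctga
Hbb-bs proximal: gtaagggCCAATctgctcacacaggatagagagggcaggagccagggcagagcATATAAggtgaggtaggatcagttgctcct
Hbb-bt: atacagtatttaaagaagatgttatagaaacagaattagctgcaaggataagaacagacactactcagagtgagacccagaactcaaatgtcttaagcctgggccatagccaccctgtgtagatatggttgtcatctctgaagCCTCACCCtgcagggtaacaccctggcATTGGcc
Alas2: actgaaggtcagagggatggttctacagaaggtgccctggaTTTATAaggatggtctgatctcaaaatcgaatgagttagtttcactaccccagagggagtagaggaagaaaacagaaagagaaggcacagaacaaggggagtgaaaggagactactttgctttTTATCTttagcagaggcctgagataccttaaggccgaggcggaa
The rest of each window lies in annotated exons and is not shown, so that matches reaching into it are not marked, among them all 4 CACC matches of Alas2, the CACC match of Hbb-bs and further CCAAT and TATA matches of Hbb-bt. The alpha copies thus share both coding and promoter sequence. The beta copies share coding sequence, and their promoters matched at fewer positions in this comparison without gaps. The level of Hbb-bs was 1.84 times that of Hbb-bt in PDR and 2.03 times in SKYD.

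The list of 8 embryonic and minor globins, which lie in the same clusters as the adult genes, included Hbb-bh0 and Hbb-bh3, annotated as pseudogenes. Of the 8, 3 reached a mean of 1 FPKM. Of these 3, Hbb-bh1 had the largest difference and alone lay past 2-fold in log2(FPKM + 1), towards PDR. That is 33.3% of the 3, against 7.38% of all tested genes, and 0 towards SKYD, against 6.91%. Hbb-bh1 (ENSMUSG00000052217, chromosome 7 from 103841637 to 103843164), an embryonic beta-like globin, had 20.97 FPKM from 302 reads in PDR and 1.44 FPKM from 22 reads in SKYD. It was 14.6-fold higher in PDR (95% CI 9.47 to 23.7), a log2 difference of 3.17, while the adult beta globins were lower in PDR. This level equals 0.232% of the adult beta globin FPKM in PDR and 0.0128% in SKYD, and its transcript shared 0 windows of 50 bases with other genes.

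The theta globin copies differed in opposite directions. Hbq1a had 56 reads in PDR and 118 in SKYD, a log2 difference of -0.83, and Hbq1b had 81 and 37, a log2 difference of 0.92 and a fold of 2.33 by reads (95% CI 1.56 to 3.54). These copies share 24.4% and 26.6% of their 100-base windows, and together they had 137 reads in PDR and 155 in SKYD. The embryonic Hbb-y had 0 and 2 reads, and Hbb-bh3 had 0 and 1. Hba-x, Hbb-bh0 and Hbb-bh2 had 0 reads in both libraries. Apart from the theta copies, Hbb-bh1 alone of this list was above the limit of 3 reads.

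Of 22 other erythroblast genes, 7 reached a mean of 1 FPKM, of which 2 lay past 2-fold towards PDR and 0 towards SKYD, against 7.38% and 6.91% of all tested genes. Car2, a carbonic anhydrase of red cells and other cells, had 33.0 FPKM in PDR and 13.2 in SKYD, a fold of 2.50 (95% CI 2.30 to 2.72). Trim10, a gene of terminal erythroid differentiation, had 3.87 and 1.27 FPKM, a fold of 3.06 (95% CI 2.32 to 4.06). Nfe2, a transcription factor of erythroid cells and megakaryocytes, was the most abundant of the list, with 24.8 FPKM in PDR and 37.0 in SKYD, a log2 difference of -0.56.

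Several defining erythroblast genes had few or no reads. Ermap and Icam4 had 0 reads in both libraries. Epor, the erythropoietin receptor, had 0 reads in PDR and 17 in SKYD, while Rhag and Car1 had 22 and 24 reads in PDR and 0 in SKYD. Gata1, the main erythroid transcription factor, had 16 reads in PDR and 17 in SKYD. These genes were chosen for mention after their values were seen, and at this depth they do not share a direction.

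Genes of the erythrocyte membrane skeleton included 6 of 15 with a mean FPKM of at least 1, all within 2-fold, as were 85.7% of all tested genes. Cd47, Mpp1 and Gypc were the most abundant, with log2 differences of 0.36, -0.18 and -0.49, and Cd47 is found on most cells. The long genes Sptb and Ank1, which encode parts of the red cell skeleton and were also chosen after their values were seen, had 0 and 2 reads in PDR and 24 and 0 in SKYD.

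Haem synthesis and transport genes were also within 2-fold, in 11 of 12 with a mean FPKM of at least 1, with 7 higher in PDR and 4 higher in SKYD. Of all tested genes, 85.7% were within 2-fold, 5158 were higher in PDR and 5240 in SKYD. Fech, the last enzyme of the pathway, had 39.7 FPKM in PDR and 25.9 in SKYD, a log2 difference of 0.60, in the direction of Alas2. Urod had 23.9 and 35.5 FPKM, a log2 difference of -0.55, and the haem transporter Slc48a1 had a log2 difference of -0.25. Alas2 exceeded Alas1, the form used by other cells, 32.5 times in PDR and 36.2 times in SKYD.

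Of 18 genes that remain abundant or act at the reticulocyte stage, 12 reached a mean of 1 FPKM, and 1 was more than 2-fold higher in PDR, or 8.33% against 7.38% of all tested genes, and 0 in SKYD. The most abundant were Ube2l6, Prdx2 and Bnip3l, with log2 differences of 0.53, 0.06 and -0.04. Tent5c, a poly(A) polymerase, was the gene past 2-fold, with 8.89 FPKM in PDR and 3.83 in SKYD, a fold of 2.32 (95% CI 2.10 to 2.56). Most of these genes are also expressed by other cells.

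Erythroid transcription factors and cofactors had 9 of 16 genes at a mean FPKM of at least 1. Of the 9, 2 lay on the PDR side and 7 on the SKYD side, against 5158 and 5240 of all tested genes. More than 2-fold differences numbered 1 higher in PDR and 2 in SKYD. These were 11.1% and 22.2% of the 9, against 7.38% and 6.91% of all tested genes. Lmo2, a bridging protein of the erythroid factor complex, had 26.2 FPKM in PDR and 10.9 in SKYD, a fold of 2.39 (95% CI 2.17 to 2.64). Gfi1b, a repressor in erythroid cells and megakaryocytes, had 1.91 FPKM in PDR and 15.2 in SKYD, 7.95-fold higher in SKYD (95% CI 6.32 to 10.1). Myb, a factor of immature blood cells, had 17 reads in PDR and 564 in SKYD, 31.2-fold higher in SKYD (95% CI 19.3 to 53.9). Ldb1 differed by -0.03. Myb and Gfi1b are also expressed outside the erythroid line, and markers of immature T cells were higher in SKYD as well. The part of any cell type in the differences of Myb and Gfi1b was not tested.

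Over the 8 erythroid lists, 99 genes were found and 54 reached a mean of 1 FPKM. More than 2-fold differences numbered 5 higher in PDR, 9.26% of the 54, and 2 higher in SKYD, 3.70%, against 7.38% and 6.91% of all tested genes. The median log2 difference was 0.10 over the 54 genes and -0.00 over all tested genes. Of the 54 genes, 29 lay on the PDR side and 25 on the SKYD side, the 4 adult globins among the 25.

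**Figure D3:**
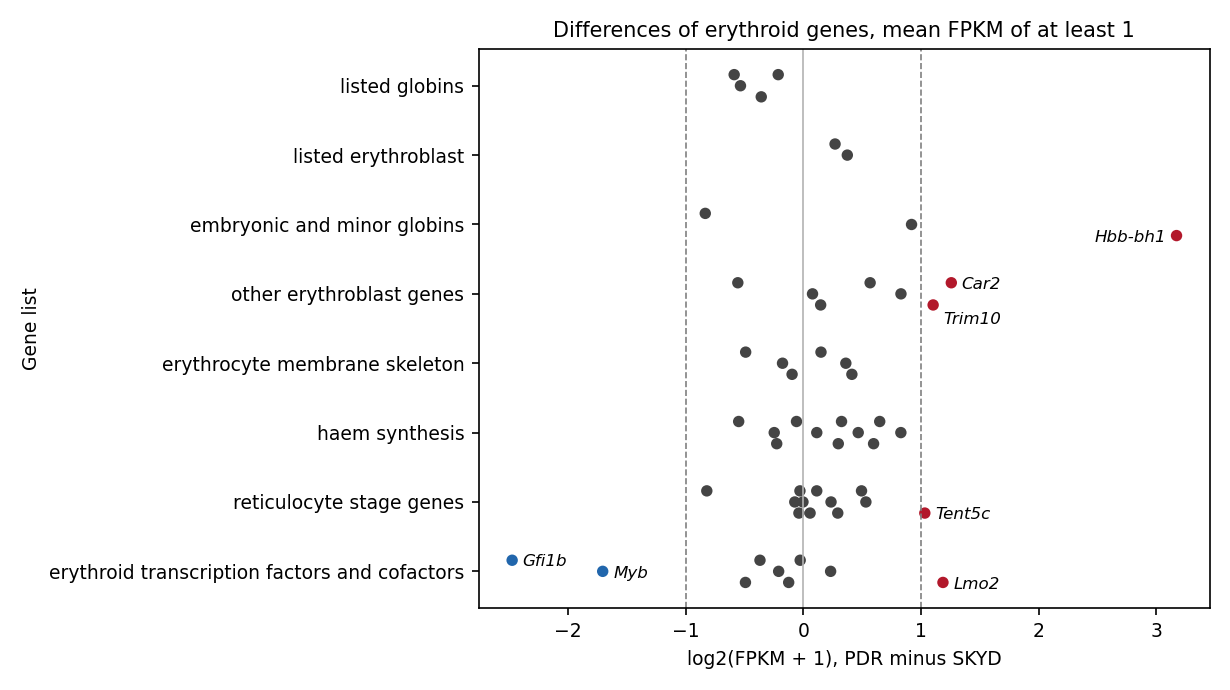
Difference in log2(FPKM + 1), PDR minus SKYD, of each erythroid gene with a mean of at least 1 FPKM, by gene list; dashed lines mark 2-fold and each point is 1 gene. The 4 listed globins lie between -0.59 and -0.21, and the genes past 2-fold are named.

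High levels were more frequent among short genes in these libraries. Of all protein-coding genes above 0, 20.8% of those of up to 1000 bases had a mean FPKM of at least 100, against 0.224% of those longer than 5000 bases. Among the erythroid genes the counts were 4 of 12 and 0 of 34, and since the 4 are the adult globins themselves, these counts add nothing on length to the level of the globins. Slc4a1 has 4891 bases and Tfrc 6185, against 812 for Hba-a1 and 2403 for Alas2, while Klf1 was low with 1530 bases. The part of length in the ratio of globins to Slc4a1 or Tfrc within a library was not tested, whereas the comparison of a ratio between the libraries uses the same lengths.

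**Figure D4:**
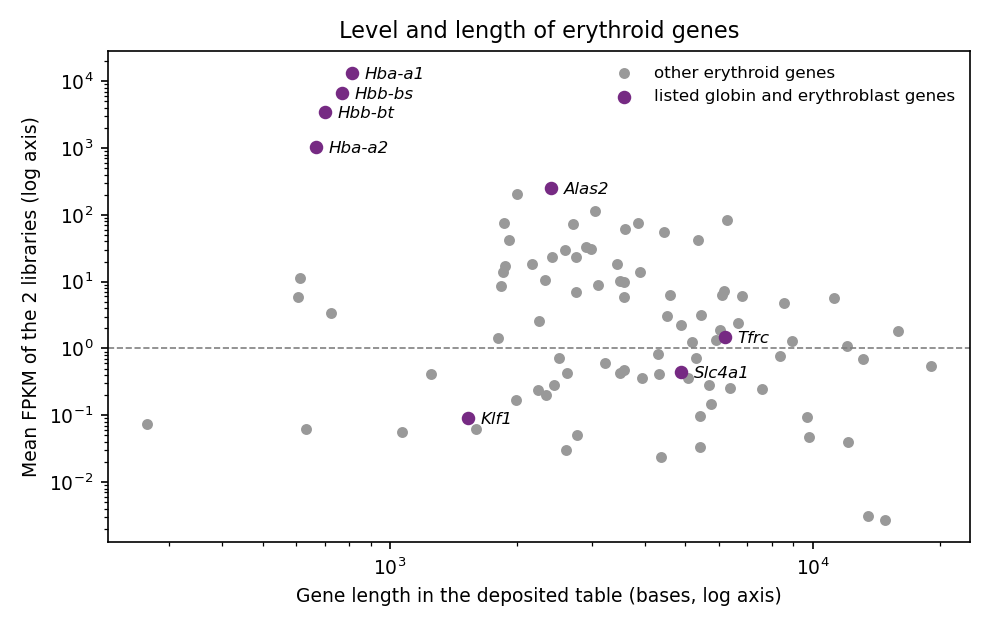
Mean FPKM of the 2 libraries against gene length, both on log axes, for erythroid genes with reads; the dashed line marks 1 FPKM. The 4 globins are short and high, and Tfrc and Slc4a1 are long and lie near or below the line.

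Erythropoietin signalling, which keeps erythroblasts alive through JAK2 and STAT5, had 9 of 12 genes at a mean FPKM of at least 1, with 0 more than 2-fold higher in PDR and 2 in SKYD, against 7.38% and 6.91% of all tested genes. Stat5b had 3.80 FPKM in PDR and 10.2 in SKYD, a fold of 2.68 in favour of SKYD (95% CI 2.42 to 2.97), and the feedback inhibitor Socs3 had 14.5 and 32.6 FPKM, a fold of 2.26 (95% CI 2.09 to 2.43). Ptpn6 and Lyn were the most abundant, with log2 differences of 0.70 and 0.25, and Jak2, named after its value was seen, differed by 0.31. Of the 9 genes, 3 lay on the PDR side and 6 on the SKYD side, against 5158 and 5240 of all tested genes. The receptor gene Epor had 0 reads in PDR and 17 in SKYD. Which cells gave the reads of the signalling genes was not tested.

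Genes by which macrophages clear red cells and handle haem and iron were, for the most part, higher in SKYD like the globins. Of 17 such genes, 15 reached a mean of 1 FPKM, of which 4 were more than 2-fold higher in SKYD and 0 in PDR, and 12 of 15 were on the SKYD side. Of all 10399 genes, 5240 were on the SKYD side and 6.91% past 2-fold towards SKYD. Hmox1, which degrades haem, had 30.4 FPKM in PDR and 79.5 in SKYD, 2.61-fold higher in SKYD (95% CI 2.45 to 2.79). Vcam1, an adhesion molecule of the macrophages around which erythroblasts mature, had 2.46 and 13.5 FPKM, 5.49-fold higher in SKYD (95% CI 5.0 to 6.05). Spic, a factor of red pulp macrophages, and Cd163, the receptor for haemoglobin with haptoglobin, had log2 differences of -1.24 and -1.30. The iron exporter gene Slc40a1 had a fold of 3.02 by reads (95% CI 2.52 to 3.65) and stayed within 2-fold in log2(FPKM + 1), at -0.88. The choice to name these 3 was made with their values known. The ferritin genes Fth1 and Ftl1 were the most abundant, with log2 differences of -0.49 and -0.79, and Blvrb differed by 0.46.

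Markers of macrophages lay for the most part on the side of the globins. Of the 18, 14 lay on the SKYD side and 4 on the PDR side, against 5240 and 5158 of all tested genes. Besides Apoe, those on the PDR side were Fcgr1, Csf1r and Timd4, at 0.54, 0.35 and 0.005, named after their values were seen. All 18 had reads in both libraries, and their summed FPKM was 26247 in PDR and 49529 in SKYD. Lyz2 was the most abundant, with 22217 and 41336 FPKM, and made up 84.6% and 83.5% of these sums. Against 6.91% and 7.38% of all tested genes, more than 2-fold differences numbered 6 higher in SKYD, led by Cd14 and C1qc with log2 differences of -2.65 and -1.59, and 1 higher in PDR, Apoe. C1qb differed by -1.25. Macrophage markers took 3.65% of reads in PDR and 6.55% in SKYD, and their part in the globin difference was not tested.

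Cells other than macrophages and red cells were marked in both libraries, some on the side of the globins. Immature T cell markers had 64.5 summed FPKM in PDR and 838.2 in SKYD, with 9 of 10 more than 2-fold higher in SKYD, against 6.91% of all tested genes. Cd8b1 was the most abundant, Dntt and Rag2 had the largest differences, and Rag1, Rag2 and Ptcra had 0 reads in PDR, while Cd1d1 differed by 0.84. Platelet and megakaryocyte markers had 261.1 FPKM in PDR and 1479 in SKYD, but Pf4 alone made up 97.7% of the sum in SKYD, and 5 of 7 tested genes were higher in PDR. In log2(FPKM + 1) only Pf4 passed 2-fold, whereas by reads Treml1 and Tubb1, named after their values were seen, were also past it, 3.39-fold (95% CI 2.05 to 5.84) and 3.09-fold (95% CI 2.05 to 4.78) higher in PDR. Ppbp and Nrgn differed by 0.20 and -0.01, and Gp1bb had 0 reads in both libraries.

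Other markers lay for the most part on the side of Alas2, and their counts stand against 7.38% of all tested genes past 2-fold towards PDR and 6.91% towards SKYD. Neutrophil markers, all 15 with reads, had 5012 FPKM in PDR and 3874 in SKYD, of which 5 were more than 2-fold higher in PDR, led by Elane and Ctsg, and 0 in SKYD. The most abundant, S100a9, S100a8 and Ngp, differed by 0.40, 0.37 and 1.0, and 3 of 15 lay on the SKYD side, Prtn3, Mmp8 and Retnlg, at -0.75, -0.56 and -0.32. B cell markers had 1725 FPKM in PDR and 390.7 in SKYD, with all 7 tested genes more than 2-fold higher in PDR. Cd79b and Cd79a were the most abundant, Ms4a1 had the largest difference, and 0 of 10 were at 0 reads. Hepatocyte markers had 2706 FPKM in PDR and 1318 in SKYD, with Apoa2 the most abundant, none of 11 at 0 reads and 10 of 11 more than 2-fold higher in PDR, led by Hpx and Cyp2e1. Hp differed by -0.57 and Fabp1 by 1.29.

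Stem and progenitor markers had 2614 FPKM in PDR and 695.6 in SKYD, of which Ly6a, also expressed by many other cells, made up 99.7% and 99.0%. Cd34 was more than 2-fold higher in SKYD, Flt3 and Procr were within 2-fold, and Hoxa9 and Mecom had 0 reads in both libraries and Hlf in SKYD. Mast cell and basophil markers had 34.9 and 34.4 FPKM, with Prss34 the most abundant, Mcpt8 and Cma1 more than 2-fold higher in PDR, Cpa3 in SKYD, Hdc within 2-fold, and Mcpt4 and Tpsb2 at 0 reads in both. Dividing cell markers, all 12 with reads, had 422.2 FPKM in PDR and 350.4 in SKYD. Mcm5 and Ccnb1 lay past 2-fold towards PDR, and the most abundant, Pcna and Ccnb2, both differed by -0.13. The part of these cell types in the differences of Alas2, Tfrc and the globins was not tested.

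**Figure D5:**
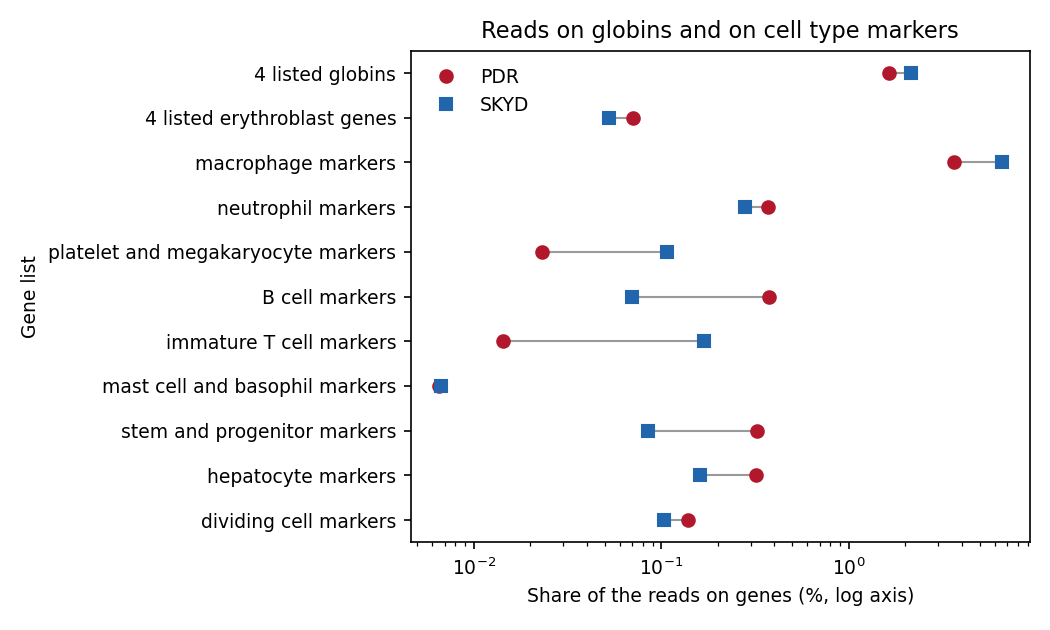
Share of reads, in percent on a log axis, on the listed globins, the listed erythroblast genes and 9 lists of cell type markers in the PDR library (circles) and the SKYD library (squares). Globins took 1.64% and 2.15% of reads, and macrophage markers 3.65% and 6.55%.

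The genes whose differences were closest to those of the globins had other roles. Of 802 other genes with means of 100 FPKM or more, 96 lay within 0.1 of the log2 difference of the summed globins, and the closest 5 were Cox7b, Chmp5, Itm2b, Fcer1g and Romo1, all at -0.44 to -0.45. For Alas2, 64 of 805 genes lay within 0.1, and the closest 5 were Cct5, Mrpl18, S100a8, Rps19 and Rps16, at 0.37 to 0.39. With 2 libraries, likeness is a single difference and many genes share it.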

How the data were processed

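RNA sequencing compared 2 pooled libraries, 1 of PDR and 1 of SKYD. Per the labels, the authors used Bowtie2 2.0.6, TopHat2 2.0.9 and HTSeq 0.6.1, and they deposited FPKM for 54532 genes. The labels name mm9, but 98.3% of 54409 shared genes have the positions of GRCm38 in GENCODE M21, so GRCm38 is used.

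FPKM times gene length, divided by 1 constant per library, was whole within 0.01 for 100% of genes above 0 and gave the reads. The library size behind FPKM was 1.02 times the reads on genes in PDR and 0.983 times in SKYD. Differences are log2(FPKM + 1), PDR minus SKYD, counted past 2-fold from a mean of 1 FPKM. Folds have exact 95% Clopper-Pearson limits on the split of reads, and intervals of sums and ratios use Poisson variances. Without replicates no test was run. The members and lists were chosen with earlier results of these data known. Named were every member and every embryonic or minor globin, per list the 3 genes of highest mean FPKM and the 2 largest differences each way past 2-fold with at least 10 reads in the higher library, and the 5 genes closest in difference to the summed globins and to Alas2. Exceptions are given as chosen after their values were seen. Alternatives were pseudocounts of 0.1 and 0.01, TPM, other scalings, centring, other filters, a 4-fold threshold, a mean of log2 values and leaving out Tfrc. Steps were tested on simulated data. Software was Python 3.11.15 with matplotlib 3.10.9, numpy 2.4.6, pandas 2.3.3 and scipy 1.17.1.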

Additional observations from a re-analysis of the deposited data

How the results depend on the processing

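Over 6 alternatives for each of 8 genes, 48 of 48 log2 differences kept the main sign. This count was in part fixed beforehand. Pseudocounts of 0.1 and 0.01 cannot reverse a sign, and centring on a median of -0.003 could hardly do so. The summed globins, at -0.44, were -0.43 rescaled to TPM, -0.40 scaled to reads without globins, -0.32 scaled to protein-coding reads and -0.42 as a mean of log2 values. The summed erythroblast genes, at 0.37, were 0.42 scaled to reads without globins, 0.50 scaled to protein-coding reads and 0.17 as a mean of log2 values, and the difference of globins against erythroblast genes, at -0.82, was -0.60 as a mean of log2 values. Scaled to protein-coding reads, Hbb-bs was -0.23 in place of -0.36 and Hbb-bt -0.09 in place of -0.21. This scaling moved the median of all tested genes by 0.11, and the genes more than 2-fold apart shifted towards PDR, with 962 higher in PDR and 653 in SKYD in place of 767 and 719, and 6 and 2 erythroid genes in place of 5 and 2. With the filter raised to a mean of 5 FPKM, the genes more than 2-fold apart numbered 464 higher in PDR and 373 in SKYD in place of 767 and 719, and the erythroid genes higher in SKYD numbered 1 in place of 2, as fewer genes were tested. At 4-fold there were 194 and 216 genes, and 1 and 1 erythroid genes, in place of 5 and 2, by the stricter threshold. No paired analysis was possible because each group has 1 library, and no library could be left out. Depth limits Klf1, Slc4a1 and the other genes with few reads, whose log2 differences depend on the pseudocount. With a pseudocount of 0.01, Slc4a1 was 0.98 in place of 0.30, Tfrc 0.45 in place of 0.27 and Klf1 -4.27 in place of -0.24. At 0.1, the genes more than 2-fold apart numbered 1057 higher in PDR and 1010 in SKYD, and the erythroid ones 6 and 2.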
